A study of Mus musculus with 14 samples.

Results

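The genes described here encode membrane transporters, ion channels, ion pumps and other transmembrane proteins of hematopoietic stem cells (HSCs). They were drawn by symbol from the 1043 genes that the authors had listed as higher in old than in young transplanted HSCs, so the members were chosen by the same values that are compared here, and their direction is a description that supports nothing. A gene was a member if its symbol started with Slc, with Abc followed by a, b, c, d or g, with Kcn, Cacn, Clcn, Aqp or Tmem, with Trp followed by c, m or v, or with the ATPase stems Atp1, Atp2, Atp6, Atp8, Atp9, Atp10, Atp11 or Atp13, if it was above 0 in at least 1 young library, and if it was absent from the gene list of the series' other experiment. This gave 44 members of 1043 genes, 21 with a Slc symbol, 16 with Tmem, 4 with Atp, 2 with Kcn and 1 with Aqp. The Abc stems gave 0 members, as did Cacn, Clcn and Trp.

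Expression was measured by RNA-seq in 4 libraries of HSCs from old wild-type donors (oHSCs, labelled o_Tx) and 3 libraries of HSCs from young wild-type donors (yHSCs, labelled y_Tx). In both groups donor HSCs had been transplanted into lethally irradiated young CD45.1 recipients and sorted from their bone marrow 4 months later, so that all cells had passed through the same kind of host. The exact age of the donors of these libraries is not given in the sources used here, and the labels call the cells hematopoietic stem and progenitor cells. The series' other experiment, in which oHSCs received a guide RNA against Clu or a control guide, was not used in the comparison.

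Solute carriers move amino acids, vitamins, sugars, nucleotides and metal ions across membranes along gradients, while ATPases such as the vacuolar proton pump build those gradients by consuming ATP. Channels let ions or water pass, and acid lysosomes, which the proton pump maintains, break down proteins and organelles in quiescent HSCs. The Tmem symbols say only that a protein crosses a membrane, and several of these proteins transport nothing that is known.

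The values are taken as FPKM, the fragments of a gene divided by the length of its transcript and by the fragments mapped in the library, which allows levels of different genes to be set side by side per length. The headers name no unit, TPM is possible, and the number of reads behind a value is unknown. A gene was called when the unadjusted two-sided p of limma on log2(FPKM + 1) was under 0.05 and the absolute log2 fold change was above 0.5, the 2 limits that the methods of the study give. The study applied them to its DESeq2 fit, so a listed gene that is not past them here, or is lower here, had still been listed by the authors as higher. On this scale the change of a gene with low values is understated. The reporting summary of the study speaks of biological replicates, but the labels do not say which animals the libraries came from, so errors measure the spread between libraries, part of which may be technical. In bulk libraries, fewer cells of a type and less RNA per cell cannot be told apart.

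Of the 44 members, 27 (61.4%) were higher in oHSCs and past both limits, where 62.5% of all 1043 listed genes were, and 0 members were lower and past them, against 10 listed genes. When limma p-values were adjusted by the Benjamini-Hochberg method over all listed genes, 13 members (29.5%) were past the limits, beside 37.3% of the listed genes. The 14 members that lost their call on adjustment were Atp6ap1, Kcne3, Slc15a2, Slc17a5, Slc35a4, Slc66a2, Slc7a7, Tmem120a, Tmem150a, Tmem158, Tmem38a, Tmem39b, Tmem53 and Tmem9, and their calls described below hold at the unadjusted limit only. All 4 oHSC libraries lay above all 3 yHSC libraries for 24 members (54.5%), beside 49.7% of the listed genes. The shares of members are near those of the list as a whole, and the median log2 fold change was 0.68 over the members and 0.70 over the listed genes. All 44 members had a positive log2 fold change, of at most 2.24. Both limits were passed and the libraries did not overlap for 17 members, while 10 were past the limits with overlapping libraries, 7 did not overlap without passing the limits and 10 did neither. Summed over the 44 members, the values came to 882, 821, 709 and 626 FPKM in oHSC replicates 1 to 4 and 496, 448 and 317 FPKM in yHSC replicates 1 to 3, which is between 0.751% and 1.06% of the sum over the listed genes. Replicate 4 was the lowest oHSC library and replicate 3 the lowest yHSC library in this sum.

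Much of this difference was shared by the whole list. After TMM scaling over the listed genes the median log2 fold change of the listed genes moved from 0.70 to 0.04 and that of the members from 0.68 to 0.01. Slc38a5, Slc46a1 and Tmem246 were still higher and past the limits, 3 of the 44 members (6.82%) beside 11.6% of the listed genes. The same 3 were past them after median-of-ratios scaling, beside 11.9% of the listed genes. The log2 fold change turned negative for 21 members (47.7%, beside 46.5% of the listed genes) after TMM scaling. It did so for 18 members (40.9%, beside 42.4%) after median-of-ratios scaling. Since the list holds genes selected for being higher in oHSCs, a change that most of the list shares is taken out by such scaling. Without replicate 3 of the yHSCs, 14 in place of 27 members were higher and past the limits, beside 405 in place of 652 listed genes. Whichever library was left out, 9 members stayed past them: Atp6v0c, Slc19a1, Slc25a21, Slc38a5, Slc41a3, Slc46a1, Slc9a3r2, Tmem246 and Tmem40. The share of listed genes that stayed past them was not computed, so this count is not set against the list.

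**Figure D1:**
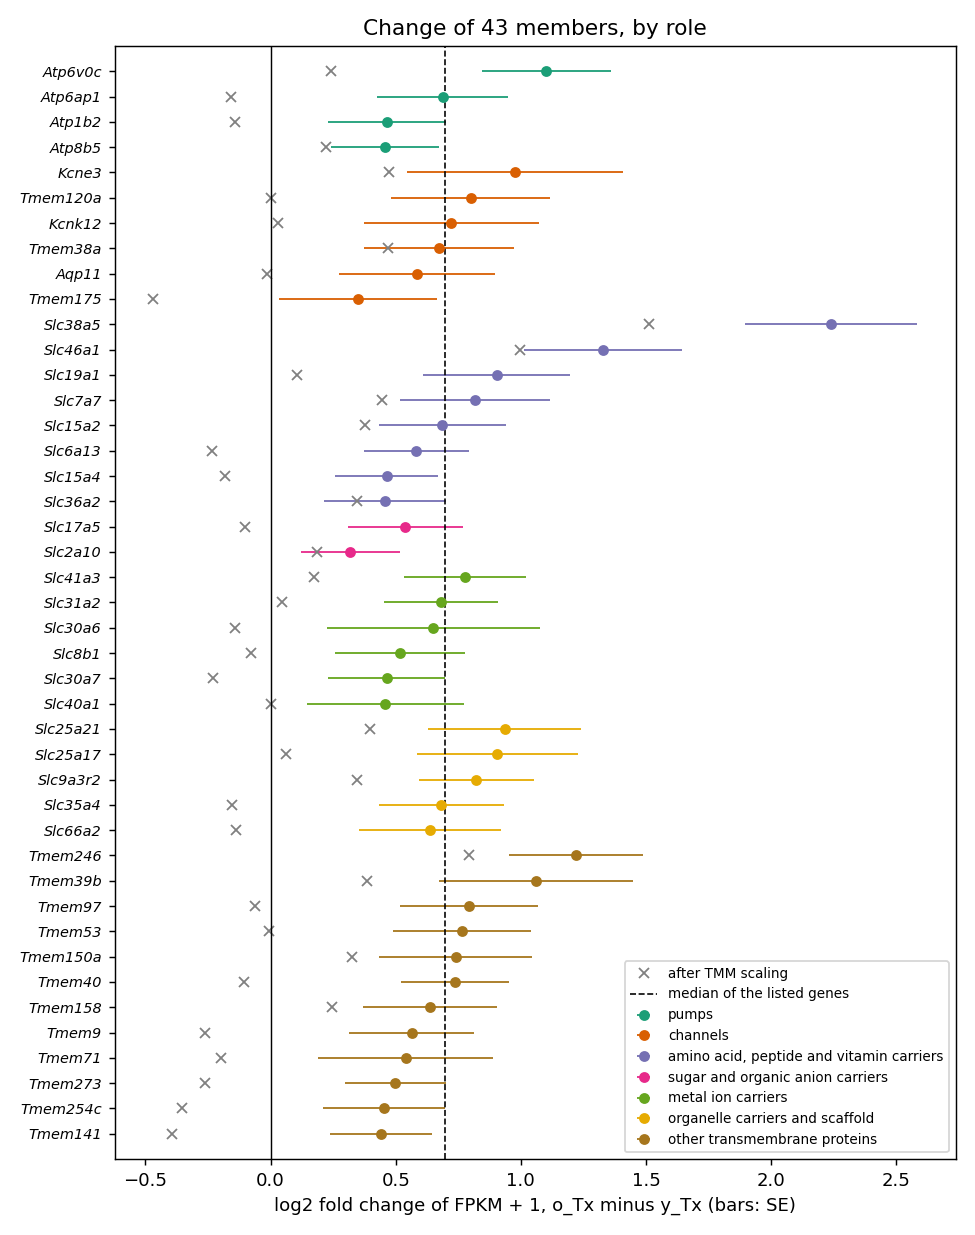
Log2 fold change of FPKM + 1 (oHSCs minus yHSCs, horizontal axis) of 43 of the 44 members, grouped by role, with standard errors as bars. Crosses give the value after TMM scaling, and the dashed line is the median of the listed genes at 0.70. Slc38a5 stands farthest right at 2.24, and 21 crosses lie left of 0.

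The rule had a threshold at 0 in the yHSC libraries. Just inside it were Slc36a2, with 0, 0.163 and 0 FPKM in yHSC replicates 1 to 3, and Slc2a10, with 0, 0 and 0.163 FPKM. Just outside were Slc13a2, a carrier of dicarboxylates, and Kcnn2, a calcium-activated potassium channel, both listed at 0 in all 3 yHSC libraries. Slc13a2 measured 0.427, 0.354, 1.46 and 0.502 FPKM in oHSC replicates 1 to 4 and Kcnn2 0.373, 0, 0 and 0.0517 FPKM. No gene was left out as a pseudogene or for being listed in the other experiment.

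Positions in the GENCODE M21 annotation of GRCm38 (mm10) were found by symbol for 43 of the 44 members, spread over 18 chromosomes, and Slc66a2 was not matched. Exons of 9 members overlap those of another annotated gene (Kcne3, Slc15a4, Slc25a21, Slc30a7, Slc35a4, Slc7a7, Tmem150a, Tmem175 and Tmem53), and whether reads were counted by strand is not given in the sources used here. Windows before the transcription start were taken from RefSeq (GRCm38.p6) for the 34 members matched there. The GC box, GGGCGG or its reverse complement CCGCCC, was present in the 250 bases before the start of 21 of the 34 members (61.8%), 332 of 682 listed genes (48.7%) and 33.0% of all 27025 genes in the table. The CCAAT box, CCAAT or ATTGG, was in 14 members (41.2%), 38.3% of the listed genes and 34.5% of all genes. The palindromic E-box CACGTG was in 2 members (5.88%), Slc38a5 and Slc41a3, in 8.06% of the listed genes and in 6.04% of all genes. AGATAA or TTATCT, read by GATA factors, was in 2 members (5.88%), Slc15a2 and Tmem254c, in 6.74% of the listed genes and in 10.2% of all genes. A match to these letters is a description of the sequence, not a site in use.

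The windows of 4 members past the limits are shown, the proton pump genes Atp6v0c and Atp6ap1, the folate carrier Slc46a1 and the peroxisomal carrier Slc25a17, because they hold the boxes counted above in different combinations. Bases that GENCODE places in an exon of the gene were left off. They are chr17:24169703-24169928 (minus strand), chrX:74296847-74297096 (plus strand), chr11:78465451-78465696 (plus strand) and chr15:81360813-81361015 (minus strand), written 5′ to 3′ on the strand of the gene with GC and CCAAT boxes in capitals.
Atp6v0c: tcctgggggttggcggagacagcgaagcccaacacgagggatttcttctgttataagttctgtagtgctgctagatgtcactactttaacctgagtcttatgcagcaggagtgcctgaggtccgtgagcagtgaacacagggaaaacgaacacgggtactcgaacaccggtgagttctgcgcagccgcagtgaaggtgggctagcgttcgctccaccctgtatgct
Atp6ap1: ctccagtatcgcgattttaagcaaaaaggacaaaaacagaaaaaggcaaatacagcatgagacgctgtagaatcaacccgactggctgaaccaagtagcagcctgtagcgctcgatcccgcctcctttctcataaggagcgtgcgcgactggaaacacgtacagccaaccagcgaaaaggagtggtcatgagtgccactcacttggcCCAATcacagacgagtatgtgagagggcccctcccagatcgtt
Slc46a1: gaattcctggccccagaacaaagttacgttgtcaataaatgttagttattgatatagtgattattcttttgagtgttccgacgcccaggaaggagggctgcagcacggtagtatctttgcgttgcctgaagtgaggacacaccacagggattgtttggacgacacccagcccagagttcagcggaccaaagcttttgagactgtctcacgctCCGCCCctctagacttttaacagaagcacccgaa
Slc25a17: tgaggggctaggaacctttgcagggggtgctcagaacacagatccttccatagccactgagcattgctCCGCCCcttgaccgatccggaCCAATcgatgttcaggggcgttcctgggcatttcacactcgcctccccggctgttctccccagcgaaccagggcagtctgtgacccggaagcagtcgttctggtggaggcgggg
The stretch of Atp6v0c shown holds 0 boxes, and its GC box lies in the part left off. That of Atp6ap1 holds 1 CCAAT box, that of Slc46a1 holds 1 GC box and that of Slc25a17 holds 1 of each.

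The counts of this and the later role groups stand beside 62.5% of the listed genes past the limits and 49.7% without overlap. Of the 4 pump genes, 2 were past the limits and 3 had libraries that did not overlap. Both genes past the limits belong to the vacuolar proton pump, which acidifies lysosomes and endosomes. Atp6v0c, which encodes the proteolipid subunit that forms the rotating ring of this pump, had the highest level of all members and was alone among them in having a group mean of at least 100 FPKM. It lies on chromosome 17 from 24163866 to 24169702 and measured 196, 192, 164 and 166 FPKM in oHSC replicates 1 to 4 and 108, 94.1 and 56.0 FPKM in yHSC replicates 1 to 3. The lowest oHSC library was above the highest yHSC library, and replicate 3 of the yHSCs was the lowest. The means were 179 ± 17.1 FPKM (oHSCs, SD, n = 4) and 85.9 ± 26.7 FPKM (yHSCs, SD, n = 3), for a log2 fold change of 1.10 (SE 0.26) that was 0.24 after TMM scaling. Of the 50-base words of its longest transcript, 12.2% also occur in transcripts of its pseudogenes Atp6v0c-ps1 and Atp6v0c-ps2, so reads may be split between them. Within the groups, the listed genes whose log2(FPKM + 1) followed it most closely over the 7 libraries were Rac2, Sap30bp and Ncf4, with Pearson r of 0.996, 0.995 and 0.994. These values are a description, because differences between libraries that many genes share were not removed.

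Atp6ap1 encodes the accessory subunit Ac45 of the same pump. It measured 64.9, 48.5, 46.9 and 36.5 FPKM in oHSC replicates 1 to 4 and 35.5, 32.5 and 22.3 FPKM in yHSC replicates 1 to 3, which did not overlap although replicate 4 of the oHSCs was close to replicate 1 of the yHSCs. Its log2 fold change was 0.69 (SE 0.26), turned to -0.16 after TMM scaling, and lost its call without replicate 1 of the oHSCs or replicate 3 of the yHSCs, where its lowest value was 0.49. Atp8b5, a P-type ATPase gene of the phospholipid flippase family, had 0.625 ± 0.269 FPKM (oHSCs, SD, n = 4) and 0.174 ± 0.0964 FPKM (yHSCs, SD, n = 3), with no overlap and a log2 fold change of 0.46 (SE 0.22) that did not reach the limit. Atp1b2, a beta subunit of the sodium pump, had 2.84 ± 0.721 FPKM (oHSCs, SD, n = 4) and 1.77 ± 0.438 FPKM (yHSCs, SD, n = 3) and overlapped between the groups.

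Of the 6 channel genes, 3 were past the limits and the libraries overlapped for all 6, while the median log2 fold change of 0.70 was near that of the listed genes. Kcne3, an accessory subunit of voltage-gated potassium channels, had 4.10 ± 1.76 FPKM (oHSCs, SD, n = 4) and 1.76 ± 1.49 FPKM (yHSCs, SD, n = 3), for a log2 fold change of 0.98 (SE 0.43). It ranged from 0.239 to 3.21 FPKM within the yHSCs, and its log2 fold change was 0.49 without replicate 3 of that group. Tmem120a encodes a membrane protein that was proposed as a force-sensing channel, a role under dispute. It measured 21.0, 18.3, 20.2 and 12.2 FPKM in oHSC replicates 1 to 4 and 16.7, 7.57 and 6.99 FPKM in yHSC replicates 1 to 3. Replicate 1 of the yHSCs lay within the range of the oHSCs, and the log2 fold change was 0.80 (SE 0.32). Tmem38a, a cation channel of the endoplasmic reticulum that balances calcium release, had 1.90, 0.588, 0.218 and 1.08 FPKM in oHSC replicates 1 to 4, the widest spread of any member within the oHSCs at 8.69-fold, and 0.152, 0.348 and 0 FPKM in yHSC replicates 1 to 3. Its log2 fold change was 0.67 (SE 0.30), and the fit blocked on the replicate number took it from the limits (0.62, SE 0.28).

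Tmem175, the potassium channel of lysosomes, measured 24.4, 29.0, 12.4 and 13.8 FPKM in oHSC replicates 1 to 4 and 17.2, 15.2 and 11.6 FPKM in yHSC replicates 1 to 3. Replicates 1 and 2 of the oHSCs were above every yHSC library and replicates 3 and 4 within their range, and the log2 fold change of 0.35 (SE 0.32) was past the limits in 0 of the 7 fits that left out a library. Kcnk12, a background potassium channel, had 6.66 ± 2.1 FPKM (oHSCs, SD, n = 4) and 3.90 ± 2.57 FPKM (yHSCs, SD, n = 3), for a log2 fold change of 0.72 (SE 0.35). Aqp11, a water channel of internal membranes, had 2.83 ± 1.11 FPKM (oHSCs, SD, n = 4) and 1.59 ± 0.988 FPKM (yHSCs, SD, n = 3), for a log2 fold change of 0.59 (SE 0.31). Both passed the limits only under the replicate block, where their log2 fold changes were 0.59 (SE 0.25) and 0.77 (SE 0.29), or without single libraries.

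The carriers of amino acids, peptides and vitamins included Slc38a5, the member with the largest difference. Of these 8 genes, 6 were past the limits and 6 did not overlap, beside 62.5% and 49.7% of the listed genes. Their median log2 fold change was 0.75. Slc38a5 encodes a sodium-coupled transporter of glutamine and other neutral amino acids, and its rank among the 1043 listed genes was 14 by log2 fold change. It lies on chromosome X from 8271133 to 8280179 and measured 21.9, 25.03, 22.2 and 10.95 FPKM in oHSC replicates 1 to 4 and 5.53, 3.09 and 1.92 FPKM in yHSC replicates 1 to 3. Replicate 4 was the lowest oHSC library and still lay above every yHSC library. The means of 20.01 ± 6.21 FPKM (oHSCs, SD, n = 4) and 3.51 ± 1.84 FPKM (yHSCs, SD, n = 3) had a ratio of 5.70, and the log2 fold change was 2.24 (SE 0.35), from 1.96 to 2.55 with each library left out in turn and 1.51 after TMM scaling.

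Folate, the vitamin that supplies single carbon units for nucleotide synthesis, enters cells through a proton-coupled transporter and a reduced folate carrier, and the genes of both were members. Slc46a1, the proton-coupled folate transporter, lies on chromosome 11 from 78465697 to 78472059 and measured 2.66, 1.69, 1.46 and 3.53 FPKM in oHSC replicates 1 to 4 and 0, 1.02 and 0.0600 FPKM in yHSC replicates 1 to 3. The groups did not overlap, and replicate 2 of the yHSCs was well above the other yHSC libraries. Its log2 fold change was 1.33 (SE 0.32) and 0.998 after TMM scaling. Slc19a1, the reduced folate carrier, had a higher level, with 25.9, 20.6, 14.2 and 12.0 FPKM in oHSC replicates 1 to 4 and 9.92, 10.6 and 6.53 FPKM in yHSC replicates 1 to 3. The groups did not overlap, the oHSC libraries spread 2.15-fold, and the log2 fold change of 0.90 (SE 0.30) fell to 0.10 after TMM scaling.

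Slc6a13, a transporter of GABA and taurine, measured 22.3, 17.4, 20.04 and 17.6 FPKM in oHSC replicates 1 to 4 and 14.0, 10.98 and 12.7 FPKM in yHSC replicates 1 to 3. Its libraries were tight within each group and did not overlap, and the log2 fold change was 0.58 (SE 0.21), which turned to -0.23 after TMM scaling. Slc7a7, which exports cationic amino acids together with a partner subunit, had 1.88 ± 0.635 FPKM (oHSCs, SD, n = 4) and 0.700 ± 0.734 FPKM (yHSCs, SD, n = 3), with overlap through replicate 1 of the yHSCs at 1.54 FPKM, and a log2 fold change of 0.82 (SE 0.30). Slc15a2, a proton-coupled peptide transporter of the cell surface, had 1.18 ± 0.599 FPKM (oHSCs, SD, n = 4) and 0.321 ± 0.103 FPKM (yHSCs, SD, n = 3), without overlap, and a log2 fold change of 0.69 (SE 0.25). Its lysosomal relative Slc15a4, which carries histidine and peptides, was the steadiest member within the oHSCs at 3.30 to 3.64 FPKM. It did not overlap with the yHSCs at 1.78 to 2.84 FPKM, but its log2 fold change of 0.47 (SE 0.21) was under the limit. Slc36a2, a proton-coupled amino acid transporter, was at 0.147 to 0.891 FPKM in oHSCs, with replicates 1 and 4 high, and overlapped with the yHSCs.

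Both sugar and anion carriers were at low levels. Slc17a5 encodes sialin, which exports sialic acid from lysosomes, and had 3.78 ± 0.568 FPKM (oHSCs, SD, n = 4) and 2.33 ± 0.739 FPKM (yHSCs, SD, n = 3). The libraries of the groups were not separate, and the log2 fold change of 0.54 (SE 0.23) was just past the limits and turned to -0.10 after TMM scaling. Slc2a10, a facilitative glucose transporter, was at 0.231 to 0.387 FPKM in oHSCs without overlap, and its log2 fold change was 0.32 (SE 0.20).

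Of the 6 metal ion carriers, 2 were past the limits. Slc41a3, a magnesium transporter, had 3.63 ± 0.965 FPKM (oHSCs, SD, n = 4) and 1.69 ± 0.512 FPKM (yHSCs, SD, n = 3), for a log2 fold change of 0.78 (SE 0.24) with no overlap. Slc31a2, a copper transporter of endosomes and lysosomes, had 3.64 ± 0.772 FPKM (oHSCs, SD, n = 4) and 1.89 ± 0.463 FPKM (yHSCs, SD, n = 3), for a log2 fold change of 0.68 (SE 0.23) with no overlap, and lost its call without replicate 2 of the yHSCs.

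The other 4 metal ion carriers were not past the limits. Slc30a6, which forms a zinc transporter of the Golgi, measured 27.1, 16.0, 15.6 and 6.57 FPKM in oHSC replicates 1 to 4 and 7.96, 14.9 and 5.94 FPKM in yHSC replicates 1 to 3. Replicate 4 of the oHSCs lay below replicates 1 and 2 of the yHSCs, and the log2 fold change was 0.65 (SE 0.43). Slc40a1 encodes ferroportin, the known exporter of iron from cells, and had 1.88, 1.69, 2.48 and 0.403 FPKM in oHSC replicates 1 to 4 and 1.10, 0.506 and 0.856 FPKM in yHSC replicates 1 to 3. Replicate 4 of the oHSCs was lower than every yHSC library while the other 3 oHSC libraries were above them, and the log2 fold change was 0.46 (SE 0.31). Slc30a7, another Golgi zinc transporter, had 4.97 ± 1.30 FPKM (oHSCs, SD, n = 4) and 3.25 ± 0.273 FPKM (yHSCs, SD, n = 3), for a log2 fold change of 0.46 (SE 0.24). The replicate block brought these 3 genes past the limits, at 0.999 (SE 0.32) for Slc30a6, 0.73 (SE 0.21) for Slc40a1 and 0.61 (SE 0.21) for Slc30a7, a fit in which the oHSC library numbered 4 has no partner and does not count. Slc8b1, the sodium and calcium exchanger of mitochondria, had 2.86 ± 0.979 FPKM (oHSCs, SD, n = 4) and 1.66 ± 0.472 FPKM (yHSCs, SD, n = 3) and did not overlap by the smallest of margins (1.984 against 1.983 FPKM), with a log2 fold change of 0.52 (SE 0.26) that was not past the p limit.

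The 5 genes of organelle carriers and a scaffold were past the limits and without overlap, in a list where 62.5% and 49.7% of all genes were, so the count of so small a group shows nothing particular to it. Their median log2 fold change was 0.82. Slc25a17, the carrier of coenzyme A and nucleotides in peroxisomes, measured 88.2, 56.2, 52.8 and 46.3 FPKM in oHSC replicates 1 to 4 and 43.6, 35.7 and 19.0 FPKM in yHSC replicates 1 to 3. Replicate 1 was the highest in both groups, and replicate 4 of the oHSCs came within a few FPKM of it in the yHSCs. The log2 fold change was 0.91 (SE 0.32) and 0.57 without replicate 3 of the yHSCs, no longer past the limits. Slc25a21, a mitochondrial carrier of oxodicarboxylates from lysine and tryptophan breakdown, had 2.91 ± 1.51 FPKM (oHSCs, SD, n = 4) and 0.938 ± 0.216 FPKM (yHSCs, SD, n = 3), for a log2 fold change of 0.94 (SE 0.31), and spread 3.88-fold within the oHSCs, with replicate 1 highest and replicate 4 lowest.

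Slc35a4, a Golgi member of the nucleotide sugar transporter family, measured 33.1, 47.7, 26.6 and 27.8 FPKM in oHSC replicates 1 to 4 and 20.4, 22.4 and 17.8 FPKM in yHSC replicates 1 to 3. Replicate 2 was the highest in both groups. Its log2 fold change of 0.68 (SE 0.25) turned to -0.15 after TMM scaling, 14.3% of its 50-base words occur in the transcript of another gene, and its exons overlap those of Apbb3. Slc66a2, a PQ-loop protein, measured 10.1, 18.2, 9.48 and 12.2 FPKM in oHSC replicates 1 to 4 and 8.79, 8.98 and 5.11 FPKM in yHSC replicates 1 to 3, with replicate 2 of the oHSCs high and a log2 fold change of 0.64 (SE 0.28). Slc9a3r2 carries a Slc symbol but encodes a scaffold that anchors a sodium and proton exchanger. It had 2.06 ± 0.576 FPKM (oHSCs, SD, n = 4) and 0.715 ± 0.219 FPKM (yHSCs, SD, n = 3), for a log2 fold change of 0.82 (SE 0.23).

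Of the 13 other transmembrane proteins, 8 were past the limits and 6 did not overlap, and the median log2 fold change was 0.64. Tmem246, also known as Pgap4, encodes a Golgi enzyme that modifies the lipid anchors of cell surface proteins and had the largest change in this group. It lies on chromosome 4 from 49584506 to 49597876 and measured 1.78, 2.97, 3.39 and 2.98 FPKM in oHSC replicates 1 to 4 and 0.509, 1.23 and 0.222 FPKM in yHSC replicates 1 to 3. The groups did not overlap, and the log2 fold change was 1.22 (SE 0.27) and 0.79 after TMM scaling. Tmem39b, a protein of the endoplasmic reticulum, measured 9.97, 6.82, 9.32 and 4.46 FPKM in oHSC replicates 1 to 4 and 3.23, 5.89 and 1.19 FPKM in yHSC replicates 1 to 3. Replicate 4 of the oHSCs lay below replicate 2 of the yHSCs, so its log2 fold change of 1.06 (SE 0.39) came with overlap, and it was 0.63 without replicate 3 of the yHSCs.

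Tmem97, the sigma-2 receptor of the endoplasmic reticulum, which takes part in cholesterol handling, had the next highest level after Atp6v0c. It measured 123, 90.8, 96.4 and 64.6 FPKM in oHSC replicates 1 to 4 and 65.5, 55.3 and 39.4 FPKM in yHSC replicates 1 to 3. Replicate 4 of the oHSCs was just below replicate 1 of the yHSCs, and the log2 fold change was 0.79 (SE 0.28) and -0.06 after TMM scaling. It shares 20.8% of its 50-base words with the annotated gene Gm5809. Tmem97 and Slc46a1 are neighbours on chromosome 11, 69758 bases apart, and Slc13a2, which the rule left out, lies 43480 bases from Slc46a1. Tmem40 measured 45.9, 54.7, 38.6 and 48.7 FPKM in oHSC replicates 1 to 4 and 31.2, 27.2 and 24.7 FPKM in yHSC replicates 1 to 3, without overlap. Its log2 fold change was 0.74 (SE 0.22) and -0.11 after TMM scaling.

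Tmem9, a lysosomal membrane protein that binds the vacuolar proton pump, measured 26.1, 33.0, 24.5 and 18.1 FPKM in oHSC replicates 1 to 4 and 18.7, 17.8 and 13.5 FPKM in yHSC replicates 1 to 3. Replicate 4 of the oHSCs was below replicate 1 of the yHSCs, and the log2 fold change was 0.56 (SE 0.25), past the limits in 1 of the 7 fits that left out a library. Tmem53, a protein of the nuclear envelope, measured 13.5, 14.6, 11.7 and 9.11 FPKM in oHSC replicates 1 to 4 and 8.22, 8.50 and 4.17 FPKM in yHSC replicates 1 to 3, without overlap and with a log2 fold change of 0.77 (SE 0.28). Tmem150a, an adaptor of a phosphatidylinositol kinase at the cell surface, had a log2 fold change of 0.74 (SE 0.30) at 1.91 ± 0.945 FPKM (oHSCs, SD, n = 4) and 0.729 ± 0.510 FPKM (yHSCs, SD, n = 3). Tmem158, named for its induction by Ras in senescent cells, had 0.64 (SE 0.27) at 1.44 ± 0.528 FPKM (oHSCs, SD, n = 4) and 0.593 ± 0.504 FPKM (yHSCs, SD, n = 3). Both overlapped between the groups.

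The remaining Tmem genes named here were not past the limits. Tmem141 measured 28.9, 30.1, 35.1 and 37.3 FPKM in oHSC replicates 1 to 4 and 22.5, 24.8 and 24.2 FPKM in yHSC replicates 1 to 3. It was among the most even members in both groups and did not overlap, yet its log2 fold change of 0.44 (SE 0.20) was under the limit and turned to -0.40 after TMM scaling. Tmem254c measured 17.7, 18.7, 18.8 and 13.7 FPKM in oHSC replicates 1 to 4 and 16.7, 11.4 and 9.49 FPKM in yHSC replicates 1 to 3, with overlap and a log2 fold change of 0.46 (SE 0.24). All of its 50-base words (100%) occur in transcripts of Tmem254a or Tmem254b, so its value is uncertain. Tmem273, at a log2 fold change of 0.50 (SE 0.20), and Tmem71, at 0.54 (SE 0.35), passed the limits under the replicate block at 0.53 (SE 0.21) and 0.74 (SE 0.28).

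**Figure D2:**
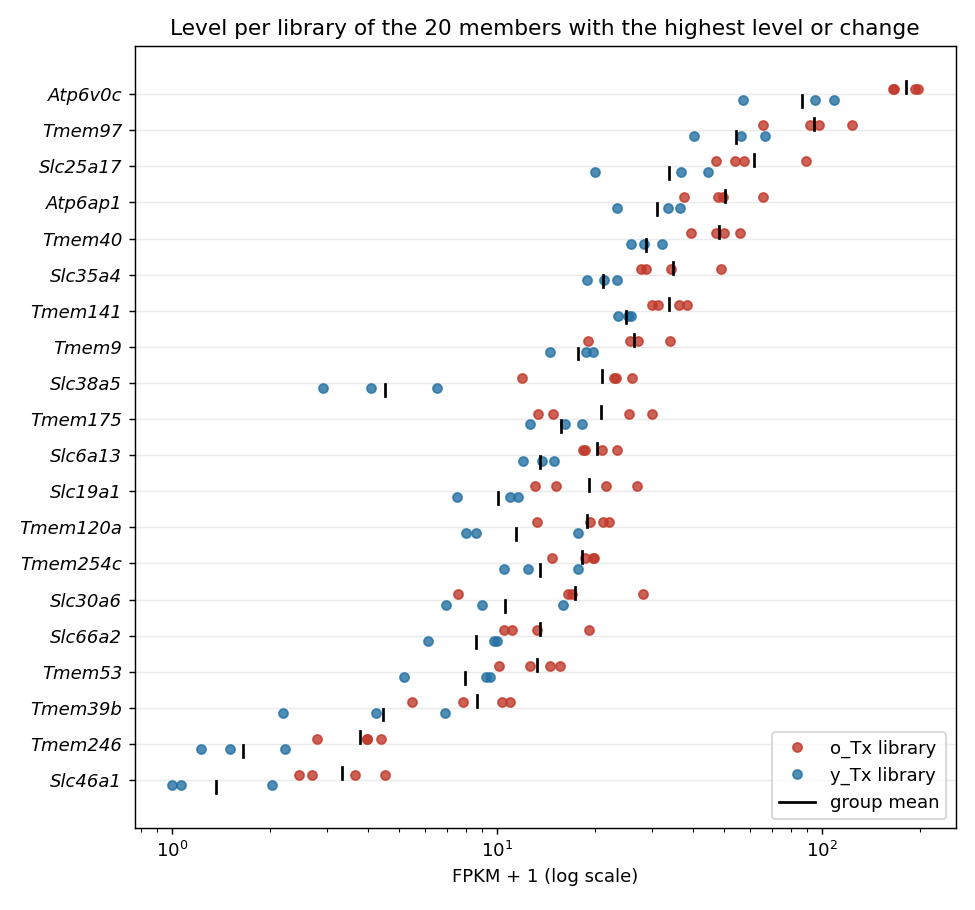
FPKM + 1 (log axis) in each oHSC library (red, o_Tx) and yHSC library (blue, y_Tx) of the 20 members with a log2 fold change of at least 1 or a higher group mean of at least 10 FPKM, with group means as black bars. Slc38a5 shows the widest gap between the groups, and Atp6v0c the highest level at 164 to 196 FPKM in oHSCs.

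The members differed in how the libraries of 1 group were ordered. Replicates 1 and 2 of the oHSCs were the highest for 17 members each (38.6%), beside 36.8% and 34.1% of the listed genes. Replicate 4 was the lowest for 24 members (54.5%), against 45.3% of the listed genes. In the yHSCs, replicate 3 alone was the lowest for 26 members (59.1%), against 58.2% of the listed genes. Members lowest in replicate 4 of the oHSCs included Slc38a5 (10.95 FPKM), Slc40a1 (0.403 FPKM), Slc30a6 (6.57 FPKM) and Slc25a21 (1.26 FPKM), whereas Kcne3 (5.76 FPKM), Kcnk12 (8.70 FPKM), Slc46a1 (3.53 FPKM) and Slc36a2 (0.891 FPKM) were highest there. These genes were picked after their values were seen.

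**Figure D3:**
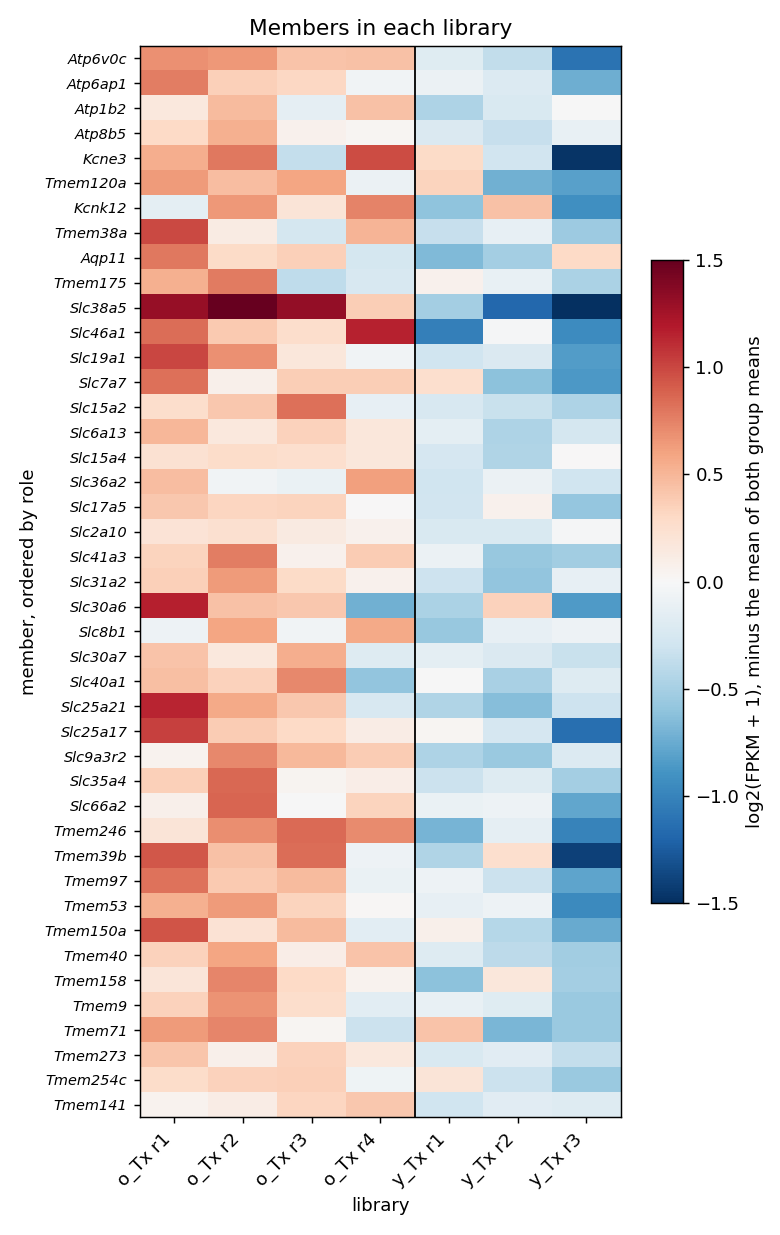
Log2(FPKM + 1) of 43 of the 44 members (vertical axis, by role) in each library (horizontal axis), minus the mean of both group means. Red fields are high and blue fields low, the colour scale ends at 1.5 in either direction, and the blue column of replicate 3 of the yHSCs and the pale column of replicate 4 of the oHSCs stand out.

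Which library a call rested on differed between members, and this was not followed gene by gene over the whole list. Of the 27 members past the limits, 18 lost their call without at least 1 library. The matching share of the listed genes was not computed. The list also depended on single libraries, with 652 genes higher and past the limits in the main fit and 405 without yHSC replicate 3. Without replicate 3 of the yHSCs the members that lost their call were Atp6ap1 (0.49), Kcne3 (0.49), Slc15a2 (0.63), Slc17a5 (0.38), Slc25a17 (0.57), Slc35a4 (0.60), Slc66a2 (0.41), Slc7a7 (0.59), Tmem120a (0.59), Tmem150a (0.54), Tmem158 (0.54), Tmem38a (0.57), Tmem39b (0.63), Tmem53 (0.48), Tmem9 (0.43) and Tmem97 (0.59), with the log2 fold change of that fit in parentheses. Without replicate 2 of the yHSCs the call was lost for Kcne3, Slc15a2, Slc31a2, Slc6a13, Slc7a7, Tmem120a, Tmem150a, Tmem38a and Tmem9, at log2 fold changes from 0.50 to 1.08. Without replicate 1 of the yHSCs the call was lost for Slc17a5, Tmem158, Tmem38a and Tmem9, at log2 fold changes from 0.49 to 0.67. Without replicate 1 of the oHSCs the call was lost for Atp6ap1, Kcne3, Slc17a5, Slc25a17, Slc7a7, Tmem120a, Tmem150a, Tmem38a, Tmem39b and Tmem9, at log2 fold changes from 0.46 to 0.96. Leaving out oHSC replicate 2 removed the calls of Kcne3, Slc17a5, Slc35a4, Slc66a2, Tmem120a, Tmem158, Tmem38a, Tmem53 and Tmem9, at log2 fold changes from 0.43 to 0.88. Without replicate 3 of the oHSCs the call was lost for Slc15a2, Slc17a5, Tmem120a, Tmem150a, Tmem158, Tmem39b and Tmem9, at log2 fold changes from 0.52 to 0.96. Leaving out oHSC replicate 4 removed those of Kcne3, Slc66a2 and Tmem38a, at log2 fold changes from 0.62 to 0.82.

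Genes that act beside the members were followed in lists written from general knowledge. Their counts here and in the next paragraph stand beside 62.5% of the 1043 listed genes that were higher and past the limits. Of 33 lysosomal genes, 21 were among the values and 12 were higher and past the limits, with 0 lower, and their median log2 fold change was 0.71. These 12 included Ctse (1.57, SE 0.34), an aspartic protease of endosomes. Of 24 genes of iron and heme handling, 11 were among the values and 9 were higher and past the limits, with a median of 0.93. Alas1, which starts heme synthesis, had a log2 fold change of 1.15 (SE 0.28), Blvrb, which reduces biliverdin, 1.04 (SE 0.22) and Hmox1, which degrades heme, 0.93 (SE 0.23). Ncoa4, the receptor for ferritin breakdown, was at 15.2 ± 2.37 FPKM (oHSCs, SD, n = 4) and 15.1 ± 1.81 FPKM (yHSCs, SD, n = 3).

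Of 34 transport genes with other symbols, 15 were among the values and 12 were higher and past the limits, and the median log2 fold change was 0.83. The scramblase genes Plscr2 (3.01, SE 0.24) and Plscr1 (1.78, SE 0.27), whose products move phospholipids between membrane leaflets, had larger log2 fold changes than the members other than Slc38a5, which Plscr2 also exceeded. Rhag (1.44, SE 0.32), an ammonia channel of red cells, Mcub (1.22, SE 0.30), a subunit of the mitochondrial calcium uniporter, and Mfsd5 (1.17, SE 0.26), a molybdate transporter, followed. Of 7 genes of zinc handling only Mt1, a metallothionein that binds zinc, was among the values, at 890.3 ± 36.5 FPKM (oHSCs, SD, n = 4) and 516 ± 81.5 FPKM (yHSCs, SD, n = 3). All of these genes had also been listed by the authors for being higher in oHSCs, so the counts describe the list.

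Markers of several blood lineages were present and higher in oHSCs, and their part in the members' differences was not tested. The counts below are within the listed genes, of which 62.5% were higher and past the limits. Of 16 erythroid markers, 12 were among the values and 10 past the limits, and their sum was 1592 to 2496 FPKM in oHSCs and 849.6 to 1163 FPKM in yHSCs. The lowest of the 4 oHSC sums was in replicate 4, which was also the lowest oHSC library for 24 of the 44 members and 45.3% of the listed genes. The globins were not among the values. All 10 mast cell and basophil markers among the values, of 12, were past the limits, with sums of 500.0 to 803.7 FPKM in oHSCs and 234.8 to 371.3 FPKM in yHSCs. For neutrophils and monocytes these were 10 past the limits of 12 among the values and 15 in the list, with sums of 8245 to 11730 FPKM and 4207 to 5324 FPKM. For megakaryocytes and platelets they were 6 of 8 and 10, with 397.5 to 610.0 FPKM and 234.0 to 307.3 FPKM. Of 9 lymphoid markers, 6 were among the values and 3 past the limits, with sums of 145.6 to 1458 FPKM and 55.4 to 146.8 FPKM that rested largely on an immunoglobulin kappa variable gene in replicates 1 and 4 of the oHSCs. Of 9 HSC markers, Procr, Slamf1, Esam and Clu were among the values, the first 3 were past the limits, and the sum was 23.6 to 40.1 FPKM in oHSCs and 9.68 to 21.8 FPKM in yHSCs. In every library the neutrophil and monocyte sum was far above the HSC sum. Elane averaged 4509 FPKM in oHSCs and 2186 FPKM in yHSCs, and Procr 12.4 and 6.32 FPKM. These levels do not bear out the name HSCs, which is the study's, while the labels say stem and progenitor cells. Kit, Ly6a, Hoxb5, Fgd5 and Mecom were not among the values. The values cover only genes that the authors listed as higher in oHSCs. Absence from them therefore does not show that the cells lack a gene, and the identity of the cells was not settled.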

How the data were processed

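The authors used TrimGalore, Hisat2 (on mm10) and FeatureCounts to trim, align and count the reads of the SMART-Seq and Nextera XT libraries, and DESeq2 to call genes. The deposited tables hold normalized values, taken here as FPKM made by the authors, for 1043 genes of the oHSC and yHSC libraries and 583 genes of the Clu guide libraries. The gene annotation and the step from counts to these values are not given in the sources used here, and depth is unknown, so no counting error could be computed. Groups and replicate numbers come from the sample titles, and every value column was mapped to a sample by its name.

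log2(FPKM + 1) of all 1043 genes was fitted with limma 3.58.1 in R 4.3.3 for oHSCs against yHSCs, and the members' values were read from it. The script was tested on simulated data with higher levels than the real ones and larger changes than most members show, in both directions. That test does not cover calls near the fold limit or at low levels. The Clu guide libraries had been normalized separately and did not enter the fit. All members but 1, which is counted but not reported here, are named by role, with a value per library where the absolute log2 fold change was at least 1 or the higher group mean at least 10 FPKM. The members and gene lists were chosen with earlier results of these data known. The main fit used no pairs, and only the replicate block read the replicate numbers as pairs. The deviations from the group means of same-numbered libraries correlated over the genes at 0.405, 0.163 and 0.161, all above 0.1. Of the differently numbered pairs only the unpaired oHSC replicate 4 with yHSC replicate 3 was above 0.1, at 0.191, which exceeds 0.163 and 0.161. The labels name no pairs and these correlations do not establish them, so calls under the replicate block rest on an assumed pairing. Promoter windows reach 250 bases before the start. The alternatives were a pseudocount of 0.1, a minimum group mean of 1 FPKM, scaling over the listed genes by TMM or the median of ratios, a replicate block, a mean-variance trend, a fold limit of 1 (log2), adjusted p-values, and leaving out libraries 1 at a time. Printed values are rounded.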

Additional observations from a re-analysis of the deposited data

How the results depend on the processing

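The number of members higher and past the limits, 27, was 30 with a pseudocount of 0.1, 24 with the filter on low values, 24 with a mean-variance trend and 33 with the replicate block. In the same order, the listed genes went from 652 to 615, 607, 633 and 752. It was 13 with adjusted p-values, 5 with a log2 fold change limit of 1, 3 after TMM scaling and 3 after median-of-ratios scaling, and the listed genes went from 652 to 389, 197, 121 and 124. Listed genes that were lower and past the limits, 10, became 2 with the higher fold limit, 60 after TMM scaling and 54 after median-of-ratios scaling. The median log2 fold change of the members was 0.014 and 0.051 after these scalings and that of the listed genes 0.041 and 0.069. Leaving out libraries 1 at a time, between 14 and 30 members and between 405 and 655 listed genes (and between 8 and 13 lower ones) were past the limits, the fewest without replicate 3 of the yHSCs, and the median log2 fold change lay between 0.57 and 0.75 for the members and 0.56 and 0.79 for the listed genes. The replicate block brought Aqp11, Kcnk12, Slc30a6, Slc30a7, Slc40a1, Tmem273 and Tmem71 past the limits, took Tmem38a from them and changed the call of no other member. The log2 fold change turned negative after TMM scaling for Aqp11 (-0.016), Atp1b2 (-0.14), Atp6ap1 (-0.16), Slc15a4 (-0.18), Slc17a5 (-0.10), Slc30a6 (-0.14), Slc30a7 (-0.23), Slc35a4 (-0.15), Slc40a1 (-0.000485), Slc66a2 (-0.14), Slc6a13 (-0.23), Slc8b1 (-0.079), Tmem141 (-0.40), Tmem175 (-0.47), Tmem254c (-0.35), Tmem273 (-0.26), Tmem40 (-0.11), Tmem53 (-0.00661), Tmem71 (-0.20), Tmem9 (-0.26), Tmem97 (-0.061), and after median-of-ratios scaling for Atp1b2 (-0.11), Atp6ap1 (-0.12), Slc15a4 (-0.15), Slc17a5 (-0.070), Slc30a6 (-0.10), Slc30a7 (-0.20), Slc35a4 (-0.11), Slc66a2 (-0.10), Slc6a13 (-0.19), Slc8b1 (-0.051), Tmem141 (-0.36), Tmem175 (-0.43), Tmem254c (-0.32), Tmem273 (-0.23), Tmem40 (-0.066), Tmem71 (-0.16), Tmem9 (-0.22), Tmem97 (-0.019). Both scalings assume by construction that most listed genes do not differ. The precision is limited by 4 and 3 libraries and by a depth that is unknown, so members under 1 FPKM are the least certain.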

Other observations

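In the series' other experiment, 13 genes with these symbol stems were among the 583 genes listed for oHSCs with a guide against Clu (sgClu, 4 libraries) or a control guide (sgCtrl, 3 libraries), and 0 of them were listed in the comparison of oHSCs with yHSCs. Since the authors had chosen them on these libraries, the values are a description. All sgClu libraries were below all sgCtrl libraries for 6 of the 13 genes (46.2%), beside 52.5% of the 583, and above them for 1 gene (7.69%), beside 14.2%. Slc25a25, a mitochondrial carrier of ATP and magnesium, measured 1.11 ± 0.379 FPKM (sgClu, SD, n = 4) and 3.32 ± 1.36 FPKM (sgCtrl, SD, n = 3). Slc20a1, a phosphate importer, measured 7.21 ± 2.18 FPKM (sgClu, SD, n = 4) and 11.6 ± 1.53 FPKM (sgCtrl, SD, n = 3), and Slco4a1, an organic anion carrier, 3.58 ± 0.554 FPKM (sgClu, SD, n = 4) and 6.40 ± 0.786 FPKM (sgCtrl, SD, n = 3). The other genes below were Abcg3, Slc22a5 and Slc22a21. Tmem33, a protein of the endoplasmic reticulum, was the gene above, with 39.9, 38.3, 34.3 and 40.4 FPKM in the sgClu libraries and 23.8, 24.8 and 21.6 FPKM in the sgCtrl libraries. The libraries overlapped for Slc25a32, Slc4a7, Slc52a2, Tmem120b, Tmem121 and Trpc6.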
